A study of Macaca mulatta with 304 samples.

Results

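The 10 genes described here encode T cell checkpoint and regulatory proteins. They are PDCD1, CTLA4, LAG3, TIGIT, BTLA, HAVCR2, CD274, FOXP3, IL2RA and TOX, and they were chosen by symbol from the count table of the whole-blood series. All 10 symbols were found among the 21070 genes of the table, and all 10 were among the 13751 genes tested, which reached 3 counts or more in 80% or more of the samples. CD274 was 1.99-fold higher (log2 fold change 1.00 ± 0.21, SE, 14 animals) after Day 90 than in the control samples of the same animals, while TOX was lower (-0.88 ± 0.15) and IL2RA was lower (-0.79 ± 0.21). The IL2RA call was lost with library series as a term (-0.28, adjusted p = 0.216) and per CD3 count (-0.32), where TOX was not called either (-0.34). BTLA was lower on Day 3 (-0.72 ± 0.12, 24 animals) and again on Day 180 and Day 210 (-1.03 ± 0.16 and -1.66 ± 0.18, 6 animals).

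Checkpoint receptors are surface proteins that T cells raise after activation and that restrain further signaling through the antigen receptor. CD274 is a ligand of PDCD1 and is carried by myeloid and other cells, where interferon induces it. FOXP3 is the transcription factor of regulatory T cells, IL2RA is the alpha chain of the high-affinity interleukin 2 receptor, which regulatory and activated T cells carry, and TOX is a nuclear factor needed for T cell development and for the state of T cells under lasting stimulation.

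Whole blood came from 28 adult rhesus macaques of the Chinese sub-strain, whose upper thorax was irradiated. The lower dose (LD, 9.8 Gy) was given to 6 males and 6 females and the higher dose (HD, 10.7 Gy) to 8 males and 8 females. Animals of both dose groups received tramadol or buprenorphine after irradiation and dexamethasone for rapid breathing. The control sample of an animal was its own sample from 2 days before irradiation (Day -2), which was at hand for 24 animals (12 per dose), and there was no sham-irradiated group. Animals were compared with their own control on 15 scheduled days, in 24 animals up to Day 40 and 21 on Day 60, in 15, 12 and 9 animals on Days 90, 120 and 150, and in 6 animals from Day 180 to Day 270. Of those last 6 animals, 5 had received 9.8 Gy.

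The total count per sample lay between 2840219 and 23638161 (median 8227563), and the median was 11697186 in control samples and 6935207 after Day 90. Library names fall into 3 number series, called A, B and C here, whose meaning is not given in the sources used here. Of the 24 control libraries 20 were of series A and 4 of series C, whereas the 53 libraries after Day 90 were 7 of series B and 46 of series C. From Day 120 on, no animal had its control and its later library in the same series, so time after irradiation and library series cannot be told apart there from these pairs alone. Whole blood mixes cell types, and in such bulk samples fewer cells of a type and less RNA per cell cannot be told apart. Defining markers of T cells (CD3E, lowest sample 35.7 CPM), monocytes (CD14, 57.95 CPM) and neutrophils (CSF3R, 300.6 CPM) were found in every window.

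The genes lie on separate parts of the genome (assembly Mmul_10). Among the inhibitory receptors, PDCD1 is at chr12:129279134-129287069 and CTLA4 at chr12:91268255-91274677, LAG3 at chr11:6936545-6943431, TIGIT at chr2:161963065-161975814, BTLA at chr2:163676109-163712432 and HAVCR2 at chr6:154493130-154516898. CD274 is at chr15:78309994-78330073, FOXP3 at chrX:49238223-49257249, IL2RA at chr9:7192508-7242421 and TOX at chr8:59450801-59761053. The annotation gives all 10 as protein coding. An exon of CD274 overlaps an exon of LOC114672797, a long noncoding RNA on the opposite strand. The library kit keeps strand, whether the counting used it is not given in the sources used here, and LOC114672797 was not analysed here.

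CD274 was the member whose level was higher than the control on all 15 days, and the bases just before its annotated start are shown because they hold a known interferon motif. They are the 100 bases at chr15:78330074-78330173 (Mmul_10, minus strand, 5′ to 3′, RefSeq annotation):
CD274 upstream: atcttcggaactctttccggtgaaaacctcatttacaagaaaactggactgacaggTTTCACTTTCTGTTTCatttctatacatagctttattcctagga
The capitals mark a run of 16 bases made of 2 overlapping matches, on the opposite strand, to 2 copies of GAAA set apart by any 2 bases, the core of the interferon-stimulated response element. The matches start 44 and 38 bases before the gene's start. Both strands of the window from 250 bases before to 50 bases after the start were searched for the annotated protein-coding genes of the assembled chromosomes. The motif was found in 729 of 20787 windows (3.51%). The windows of the other 9 genes held no match to these letters. The letters TTCNNNGAA, bound by STAT factors, were found in the BTLA window and in 6.99% of all windows. A match is a description of the sequence and not evidence of binding.

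Before irradiation the members differed widely in level. Per kilobase of exon, the median over the 24 control samples was 20.9 CPM per kb for TOX (lowest 12.3, highest 28.4), 14.3 for BTLA (3.17 to 24.2), 12.9 for PDCD1 (7.98 to 23.9) and 8.53 for TIGIT (3.70 to 19.8). These 4 genes had the higher levels. The medians were 4.41 CPM per kb for IL2RA, 3.04 for CD274, 2.37 for FOXP3, 1.89 for LAG3, 1.48 for CTLA4 and 1.09 for HAVCR2. Neighbours in this order were often not separated, since BTLA was above PDCD1 in only 10 of 24 animals, and the order of the other neighbouring pairs held in 16 to 21 of 24. After Day 90 the median of BTLA was 6.24 CPM per kb over 53 samples, below that of PDCD1 (11.8), and the median of CD274 was 5.67, above that of IL2RA (2.27).

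**Figure D1:**
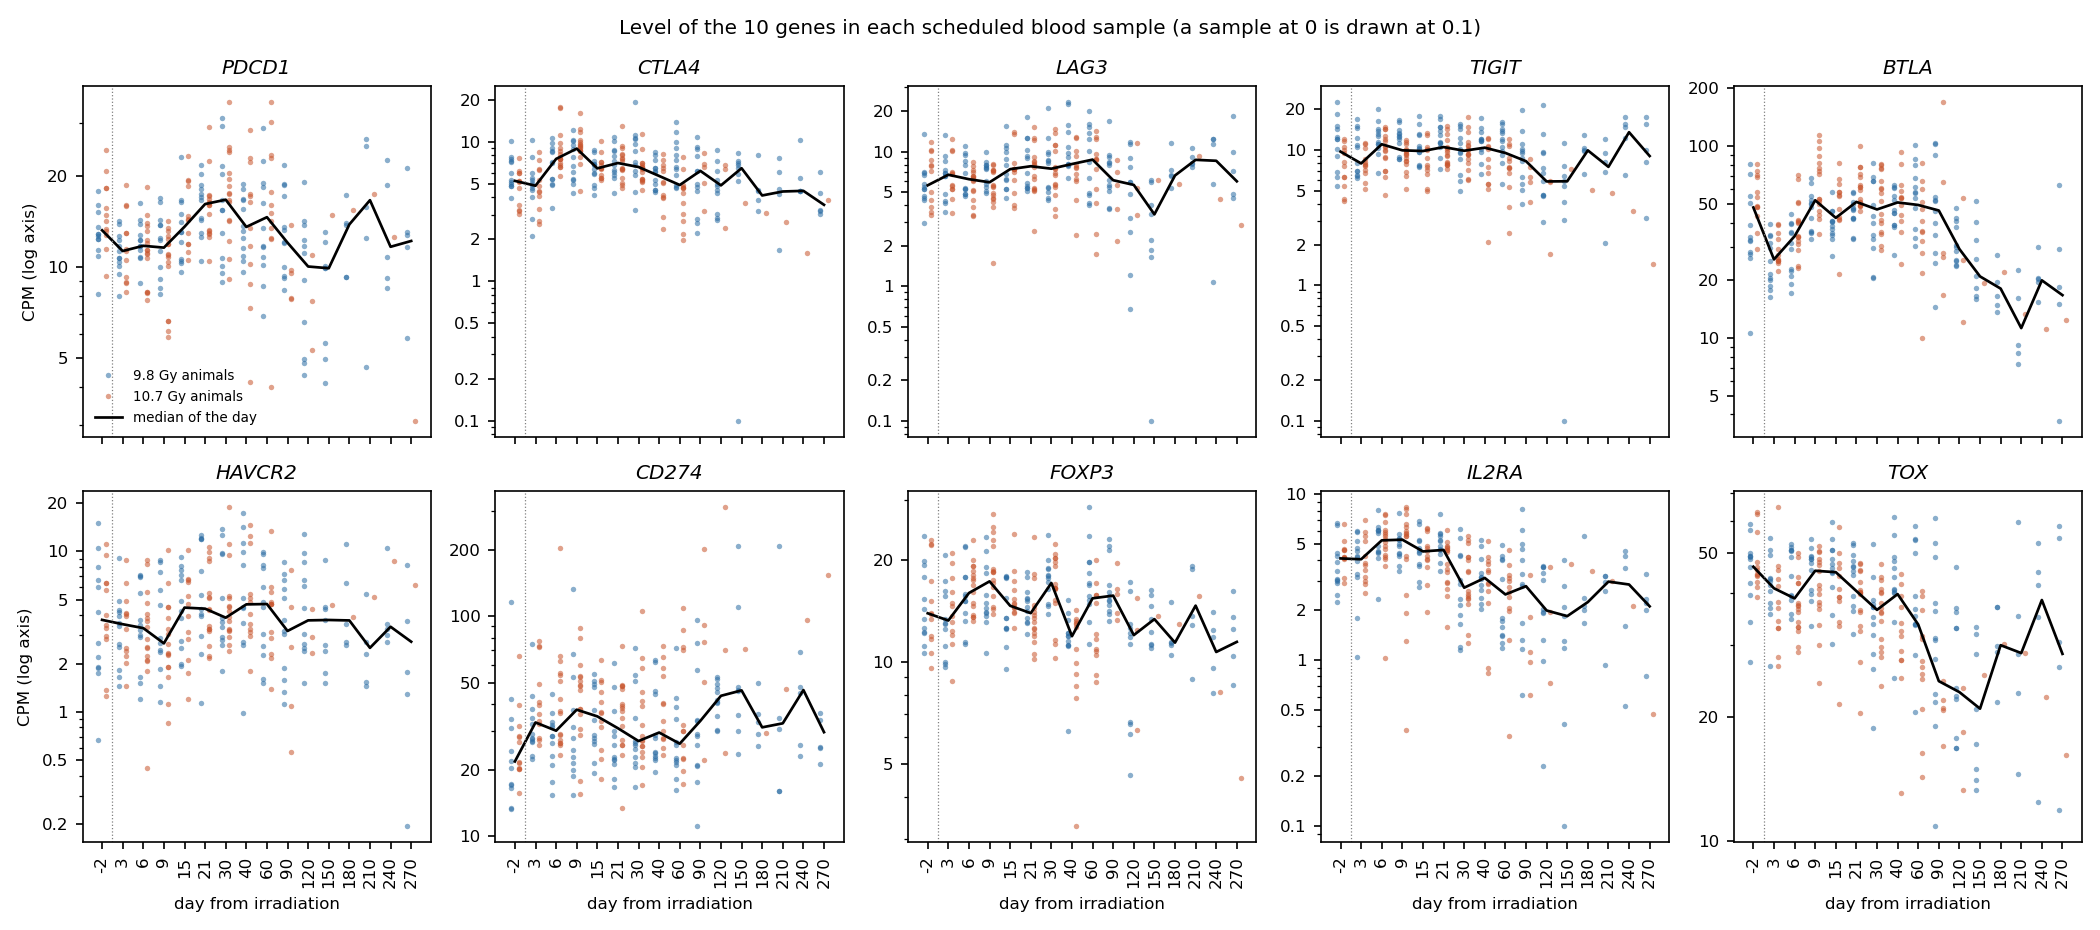
Level of each gene (CPM, log axis) by day from irradiation, with a point for each scheduled sample coloured by the dose of the animal and a line through the median of each day. The animals drawn differ between days. The median of BTLA dips on Day 3 and is lower from Day 120, the median of CD274 is lowest in the control samples, and a sample at 0 is drawn at 0.1.

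Counts behind these levels were moderate. The median count per sample ranged from 31.5 for IL2RA and 33 for HAVCR2 to 369 for BTLA. A single library, that of animal B1502 on Day 150, had no count for CTLA4, LAG3, TIGIT and IL2RA. It was the shallowest of the series (2840219 counts) and held 122.7 CPM of CD3E.

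A member was called changed on a day where its adjusted p (edgeR quasi-likelihood test, Benjamini-Hochberg over all 13751 genes) was at most 0.05 and its fold change at least 1.5. Of the 150 combinations of member and day, 7 were called higher and 11 lower. CD274 took 5 of the 7 higher calls and LAG3 the other two, and the lower calls fell on BTLA, IL2RA and TOX (3 days each) and TIGIT (2 days). PDCD1, CTLA4, HAVCR2 and FOXP3 were called on no day by edgeR, although their adjusted p was at most 0.05 on 5, 5, 2 and 2 days.

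The calls were few until Day 90 and more frequent after it. One gene, BTLA, was called on Day 3, when 11.5% of all tested genes were called. On Days 6, 9, 15, 21 and 30 edgeR called no member, where 11.5%, 7.58%, 6.01%, 10.4% and 5.9% of all genes were called, DESeq2 called none on these days, and 6, 6, 3, 7 and 6 members had an unadjusted p below 0.05. There was 1 member called on each of Day 40, Day 60 and Day 90, against 6.92%, 4.23% and 7.06% of all genes. On Day 120 and Day 150 there were 4 members called on each day, against 31.8% and 31.5% of all genes. On Day 180, Day 210 and Day 240 there were 2, 3 and 1, against 18.7%, 29.8% and 6.76%. On Day 270 no member was called by edgeR and 0.00727% of all genes (1 gene) were, while 3 members had an unadjusted p below 0.05 and DESeq2 called 1 member. With 10 members, each is 10% of the list, so these counts lay near the share of all genes on most days.

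**Figure D2:**
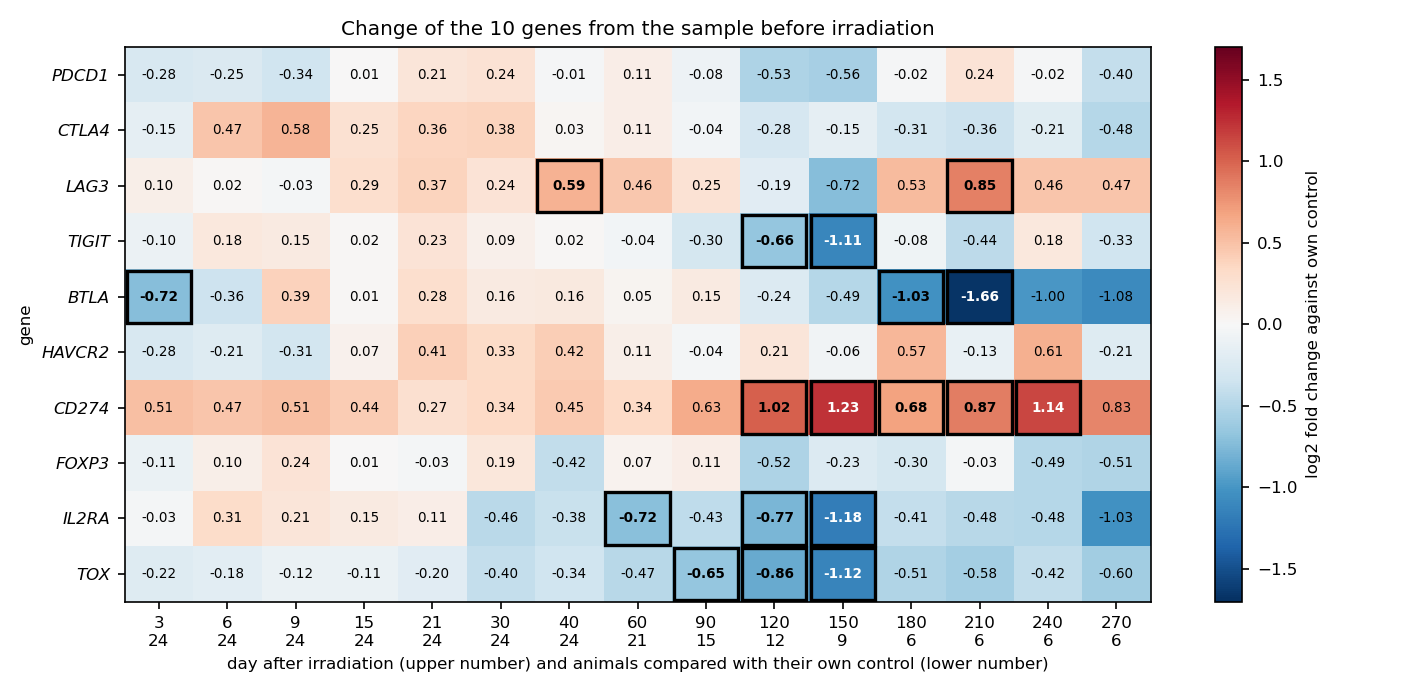
Log2 fold change of each gene (rows) on each scheduled day (columns, with the number of animals below) against the control of the same animals, blue for lower and red for higher. Outlined cells passed both thresholds (7 higher, 11 lower), and those after Day 90 are mostly in the rows of CD274, IL2RA, TOX, TIGIT and BTLA.

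BTLA, an inhibitory receptor of B and T cells that binds TNFRSF14, was the inhibitory receptor with the largest change. In the 24 animals its level was between 11.1 and 84.4 CPM before irradiation (median 49.8) and between 16.9 and 41.1 on Day 3 (median 26.7). The 2 ranges overlapped, and 21 of the 24 animals were lower on Day 3 (log2 fold change -0.72 ± 0.12, adjusted p = 5.95e-06). On Day 9 the log2 fold change was 0.39, and it lay between -0.24 and 0.28 on the days from Day 15 to Day 120. On Day 180 it was lower in 6 of 6 animals (27.04 to 71.8 CPM before, median 34.1, and 14.3 to 28.3 after, median 18.8, adjusted p = 0.000937). On Day 210 the control values (25.5 to 67.8 CPM, median 32.3) and the values after irradiation (7.21 to 22.3, median 11.1) did not overlap, and BTLA was 0.316 times its control (log2 fold change -1.66 ± 0.18, adjusted p = 0.000116). On Day 240 and Day 270 the log2 fold changes were -0.9952 and -1.08 and did not pass the threshold.

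B cell transcripts were low on these days and also on days when BTLA was near its control. On Day 3, 8 of 8 B cell markers fell (CD22 -1.45 ± 0.13), and the median log2 fold change of the 8 T cell markers was 0.13. The summed B cell markers were lower in 6 of 6 animals on Day 180 and on Day 210 (median log2 change -2.15 and -2.26). They were as low on Day 120 (-1.85, 12 of 12 animals) and Day 150 (-2.34, 9 of 9), when the median change of BTLA was -0.02 and -0.30. On Day 9 they were at -1.14 (lower in 23 of 24) and BTLA was at 0.42. From Day 120 on the animals compared differ (12, 9, then 6), so time and the animals still drawn cannot be told apart there. The summed level of the B cell markers ranged from 333.5 to 2526 CPM in control samples, from 191.4 to 1702 at early time points and from 47.9 to 911.6 after Day 90. Relative to the summed B cell markers of the same sample it was higher by 0.94 ± 0.53 on the log2 scale (SD, 24 of 24 animals) at early time points and by 1.53 ± 0.78 (14 of 14) after Day 90. Relative to the summed T cell markers the change after Day 90 was 0.22 ± 1.09 (higher in 7 of 14). The part of B cells in the change of BTLA was not tested.

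**Figure D3:**
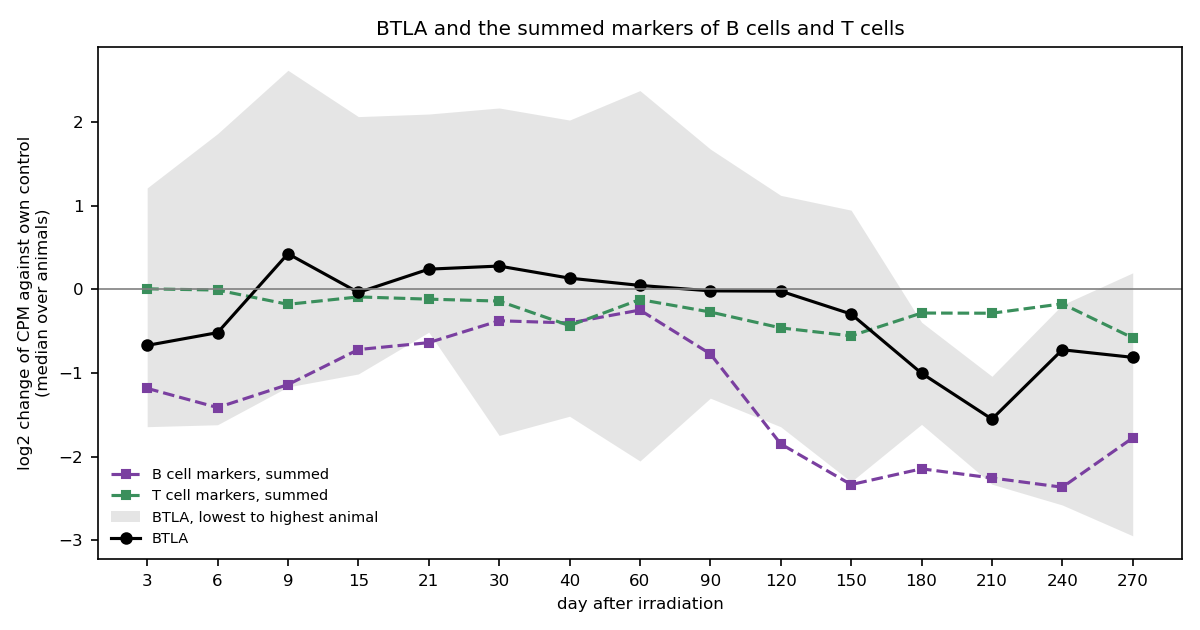
Log2 change of CPM against the own control by day (median over animals) for BTLA and for the summed markers of B cells and of T cells, with the grey band from the lowest to the highest animal for BTLA. The B cell markers are low from Day 3 to Day 9 and from Day 120 on (-1.85 on Day 120), whereas BTLA is low on Day 3 and Day 6 and from Day 180 and is near 0 from Day 15 to Day 120. The animals compared differ between days.

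LAG3, a receptor related to CD4 that binds class II molecules of the histocompatibility complex, rose on 2 days. On Day 40 it ranged from 2.48 to 24.3 CPM (median 8.40) against 3.06 to 13.9 before (median 5.84), and 20 of 24 animals were higher (log2 fold change 0.59 ± 0.16, adjusted p = 0.0031). This fold, 1.504, was just past the threshold, and the log2 fold change was 0.45 in a fit with library series as a term and 0.16 in the animals whose 2 libraries shared a series, neither of which was called. On Day 210 all 6 animals were higher (0.85 ± 0.20, adjusted p = 0.00522). The 2 groups did not overlap, with 2.88 to 6.86 CPM before (median 4.82) and 7.49 to 10.4 after (median 8.51). With library series as a term the Day 210 value was 0.52 and was not called.

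TIGIT, which shares its ligands PVR and NECTIN2 with the activating receptor CD226, fell on Day 120 and Day 150. On Day 120 the level in 12 animals was 5.34 to 22.3 CPM before (median 11.98) and 2.93 to 21.4 after (median 6.21), and 9 animals were lower (-0.66 ± 0.18, adjusted p = 0.00852). On Day 150 the 9 animals went from a median of 11.97 CPM (5.34 to 22.3) to 5.80 (0 to 11.2), lower in 8 of 9 (-1.11 ± 0.37, adjusted p = 0.0267). The ranges overlapped on both days. Without the shallow library of B1502 the Day 150 value was -0.87 and was still called. It was not called without B1002, B1501 or B1503 (-1.10, -1.02 and -1.11). The Day 120 call was lost with TMM scaling (-0.56), DESeq2 (-0.52) and library series as a term (-0.37).

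PDCD1, the receptor of CD274, was between -0.56 and 0.24 on the log2 scale on all 15 days. CTLA4, which competes with the costimulatory receptor CD28 for its ligands, had its highest value on Day 9 (0.58 ± 0.12, adjusted p = 0.000283, 21 of 24 animals higher, 3.22 to 10.7 CPM before and 4.58 to 17.1 after), which was just under the fold threshold. HAVCR2, a receptor found on T cells, NK cells and myeloid cells, was between -0.31 and 0.61. Its estimate over all time points after Day 90 was 0.09 (95% interval -0.47 to 0.66, 14 animals).

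CD274 was above its control on each of the 15 days, with log2 fold changes from 0.27 to 1.23 and an adjusted p of at most 0.05 on 11 of them. On Day 3 it ranged from 23.3 to 80.2 CPM (median 34.2) against 13.9 to 120.7 before (median 22.8), higher in 21 of 24 animals (0.51 ± 0.09, adjusted p = 3.47e-05), short of the fold threshold. It passed both thresholds on every scheduled day from Day 120 to Day 240. On Day 120 all 12 animals were higher, from 13.2 to 41.9 CPM (median 20.7) to 29.9 to 69.8 (median 43.1), a log2 fold change of 1.02 ± 0.15 (adjusted p = 0.000144). On Day 150 the level was 23.4 to 205.9 CPM (median 45.6) against 13.3 to 41.9 (median 21.3), higher in 8 of 9 animals (1.23 ± 0.32, adjusted p = 0.00674). The range on each of these days overlapped that of the control samples.

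The later CD274 calls rested on 6 animals and were less firm. On Day 180 the level was 26.8 to 51.6 CPM (median 32.5) against 13.98 to 35.5 (median 21.8), higher in 5 of 6 animals (0.68 ± 0.23, adjusted p = 0.043). That call was lost without B1003 (0.45), B1004 (0.60), B1503 (0.70), B1505 (0.72) or B2502 (0.73). On Day 210 the range was 15.7 to 205.4 CPM (median 32.03) against 13.2 to 33.5 (median 20.6), and 5 of 6 animals were higher (0.87 ± 0.28, adjusted p = 0.0281). The highest value was that of B1502, without which the log2 fold change was 0.52 and was not called, nor was it called without B1503 (0.91) or B2502 (0.80). On Day 240 all 6 animals were higher (13.5 to 34.1 CPM before, median 20.9, and 23.3 to 96.02 after, median 46.2, 1.14 ± 0.26, adjusted p = 0.0309), a call lost without B1003 (1.18), B1004 (1.07) or B1503 (1.03). On Day 270 the value was 0.83 ± 0.35 (5 of 6 higher, adjusted p = 0.148).

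Transcripts of neutrophils, monocytes and interferon response genes were measured beside CD274, since all of these can move with it. After Day 90, 8 of 10 neutrophil markers rose (MMP8 3.28 ± 0.48) and 4 of 7 monocyte markers rose (CD163 1.62 ± 0.31). Their summed levels went from 824.2 to 7710 CPM in control samples to 1576 to 15670 for neutrophils and from 696.4 to 4574 to 1253 to 5793 for monocytes. The ratio of CD274 to the neutrophil markers changed by -0.12 ± 0.66 on the log2 scale (SD, higher in 6 of 14 animals) and the ratio to the monocyte markers by 0.03 ± 0.63 (7 of 14). Of 10 interferon response genes, 6 rose at early time points (IFIT1 1.604 ± 0.15, ISG15 1.36 ± 0.20). After Day 90, 4 fell (OAS2 -0.82 ± 0.15, ISG15 -0.77 ± 0.24), none was called higher and 6 were not called. The median log2 fold change of the 10 genes after Day 90 was nonetheless positive, while that of all genes tested was negative. Averaged over the 14 animals, the summed level of the 10 genes was higher after Day 90, by less than its SD. The summed levels were 984.9 to 3431 CPM in control samples, 1085 to 10560 at early time points and 948.5 to 17180 after Day 90. The ratio of CD274 to these genes changed by 0.05 ± 0.28 (17 of 24 animals higher) at early time points and by 0.75 ± 0.53 (13 of 14) after Day 90. The part of these cells and genes in the level of CD274 was not tested.

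The 2 genes of regulatory T cells differed. FOXP3 was called on no day, with log2 fold changes from -0.52 to 0.24, and its value of -0.42 ± 0.10 on Day 40 had an adjusted p of 0.000991 but did not reach the fold threshold. IL2RA was called lower on Day 60, Day 120 and Day 150. On Day 60 its level in 21 animals was 0.364 to 5.14 CPM (median 2.51) against 2.34 to 7.06 before (median 4.27), lower in 17 animals (-0.72 ± 0.18, adjusted p = 0.00688). On Day 120 it was 0.227 to 3.69 CPM (median 2.52) against 2.22 to 6.70 (median 3.66), lower in 11 of 12 animals (-0.77 ± 0.26, adjusted p = 0.0225). On Day 150 all 9 animals were lower, from 2.22 to 6.70 CPM (median 3.90) to 0 to 3.99 (median 1.83), a log2 fold change of -1.18 ± 0.40 (adjusted p = 0.0289).

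The control and later values of IL2RA overlapped on all of these days. With library series as a term the values were -0.10, -0.29 and -0.41 on Day 60, Day 120 and Day 150, and the gene was called on none of them. The Day 120 call was lost without B1003 (-0.67). The Day 150 value was -1.01 and still called without the library of B1502, and the call was lost without B1002, B1501, B1503 or B1506 (-1.14, -1.03, -1.10 and -1.17).

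TOX was below its control on each of the 15 days, from -0.11 to -1.12 on the log2 scale, with an adjusted p of at most 0.05 on 11 of them. On Day 90 it ranged from 11.5 to 64.4 CPM (median 29.2) against 28.8 to 62.4 before (median 49.03), and 14 of 15 animals were lower (-0.65 ± 0.12, adjusted p = 0.00108). On Day 120 all 12 animals were lower, from 33.8 to 58.5 CPM (median 48.2) to 16.6 to 45.9 (median 22.8), a log2 fold change of -0.86 ± 0.15 (adjusted p = 0.000325). On Day 150 all 9 animals were lower again, and the control values (33.8 to 58.5 CPM, median 47.8) lay above those after irradiation (13.2 to 32.8, median 20.8) with no overlap (-1.12 ± 0.19, adjusted p = 0.000459). From Day 180 to Day 270 the log2 fold change was between -0.42 and -0.60 and was not called.

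Counts were then summed per animal over early (Day 3 to 21), medium (after Day 21 to Day 90) and late (after Day 90) time points. At early time points edgeR and DESeq2 called no member, when 5.79% of genes were higher and 1.75% lower, and 4 members had an unadjusted p below 0.05. An adjusted p of at most 0.05, whatever the fold, was reached by 3 members (CTLA4 0.31 ± 0.09, CD274 0.47 ± 0.12 and TOX -0.17 ± 0.06) and by 49.1% of all genes. At medium time points no member was called by either tool, when 4.48% of genes were higher and 1.27% lower, and 4 members had an unadjusted p below 0.05. The adjusted p was at most 0.05 for LAG3 (0.42 ± 0.13), CD274 (0.49 ± 0.11), IL2RA (-0.45 ± 0.11) and TOX (-0.43 ± 0.05), against 45.3% of all genes. With library series as a term the values of LAG3 (0.23, adjusted p = 0.348) and IL2RA (0.0008, adjusted p = 0.999) no longer passed it, and in the 4 animals of a single series they were -0.06 and 0.06, while CD274 (0.56 and 0.77) and TOX (-0.37 and -0.66) still did. TOX was lower in 24 of 24 animals, from 28.6 to 66.1 CPM (median 48.6) to 19.4 to 47.02 (median 36.5).

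At late time points 1 member was called higher, when 14% of all genes were, and 2 were called lower, when 18.5% were. CD274 went from 13.1 to 114.5 CPM (median 21.4) to 28.0 to 194.9 (median 41.5) and was higher in 13 of 14 animals (adjusted p = 0.000573). IL2RA went from 2.21 to 6.67 CPM (median 3.22) to 0.226 to 4.05 (median 2.49) and was lower in 12 of 14 (adjusted p = 0.00425). TOX went from 26.9 to 58.2 CPM (median 46.7) to 11.6 to 44.8 (median 23.1) and was lower in 13 of 14 (adjusted p = 1e-04). Before and after overlapped for all 3 genes. TIGIT (-0.45 ± 0.15) and BTLA (-0.52 ± 0.20) had an adjusted p of at most 0.05 without the fold, making 5 members against 55.3% of all genes. The median log2 fold change of the 10 members was -0.30, beside -0.13 for all genes tested. That median of all genes moved to -0.03 with TMM scaling and -0.01 with DESeq2, under which CD274 was 1.09 and 1.12, IL2RA -0.70 and -0.66, and TOX -0.78 and -0.76, all still called.

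Late control and irradiated libraries shared a number series in 1 of 14 animals. In a fit over all samples with animal, window and library series as terms, CD274 (1.22, adjusted p = 4.44e-07), TOX (-0.75, adjusted p = 1.01e-08) and BTLA (-1.13, adjusted p = 1.1e-06) were called at late time points. IL2RA was not (-0.28, adjusted p = 0.216). In the 6 animals followed to Day 270, CD274 (1.05, adjusted p = 0.000622) and BTLA (-0.77, adjusted p = 0.00497) were called, and IL2RA and TOX (-0.59 and -0.58) did not pass the thresholds. The shares of all genes called in these alternative fits are not given here.

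**Figure D4:**
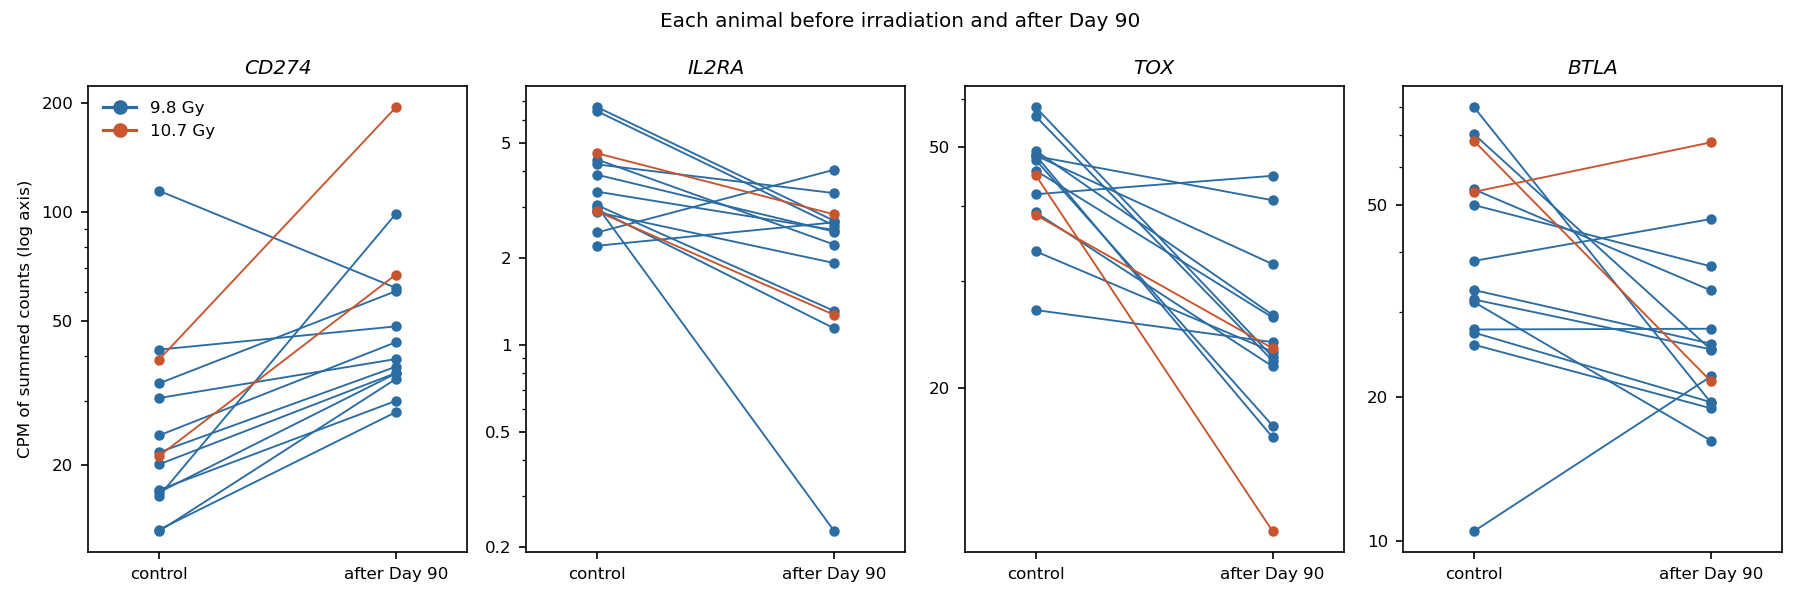
CPM of summed counts (log axis) in the control and after Day 90 for CD274, IL2RA, TOX and BTLA, with a line for each of the 14 animals coloured by dose. CD274 is higher in 13 animals, IL2RA lower in 12, TOX lower in 13 and BTLA lower in 10.

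T cell transcripts were lower at late time points, with 6 of 8 T cell markers called (CD5 -1.17 ± 0.24, LCK -0.92 ± 0.16) and summed levels of 955 to 2181 CPM in control samples and 279.9 to 2015 after Day 90. Members were therefore also measured as counts per 100 counts of CD3D, CD3E and CD3G, chains of the antigen receptor complex. On this scale IL2RA and TOX were not called at late time points (-0.32 ± 0.21, 95% interval -0.77 to 0.13, and -0.34 ± 0.14, -0.64 to -0.03). CD274 was called higher, from a median of 4.35 to 12.98 per 100 CD3 counts (1.54 ± 0.34, adjusted p = 0.00177, 13 of 14 animals), which as a ratio of a largely myeloid transcript to T cell transcripts also moves with the share of T cells. It was the only member called late, when 35.2% of genes were higher and 2.67% lower.

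At medium time points LAG3 rose per CD3 count, from 0.590 to 2.36 (median 1.09) to 0.838 to 3.94 (median 1.7) per 100, in 23 of 24 animals (0.67 ± 0.11, adjusted p = 1.75e-05). CD274 rose too (0.73 ± 0.15, adjusted p = 0.000299, 19 of 24), when 12.3% of all genes were called higher and 0.153% lower. The median log2 fold change over all genes tested was also positive on this scale. Control and medium libraries shared a series in only 4 of 24 animals, and no value per CD3 count with library series as a term is given here. With upper quartile scaling and that term, as stated above, the medium change of LAG3 no longer passed the adjusted p, whereas that of CD274 did. At early time points no member was called per CD3 count by edgeR or DESeq2 (4.82% of genes higher, 2.41% lower), and 4 members had an unadjusted p below 0.05. Relative to the sum of all 8 T cell markers, FOXP3 was higher by 0.42 ± 0.46 (SD) in 12 of 14 animals at late time points, while TOX changed by -0.15 ± 0.29 and IL2RA by -0.18 ± 0.73.

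**Figure D5:**
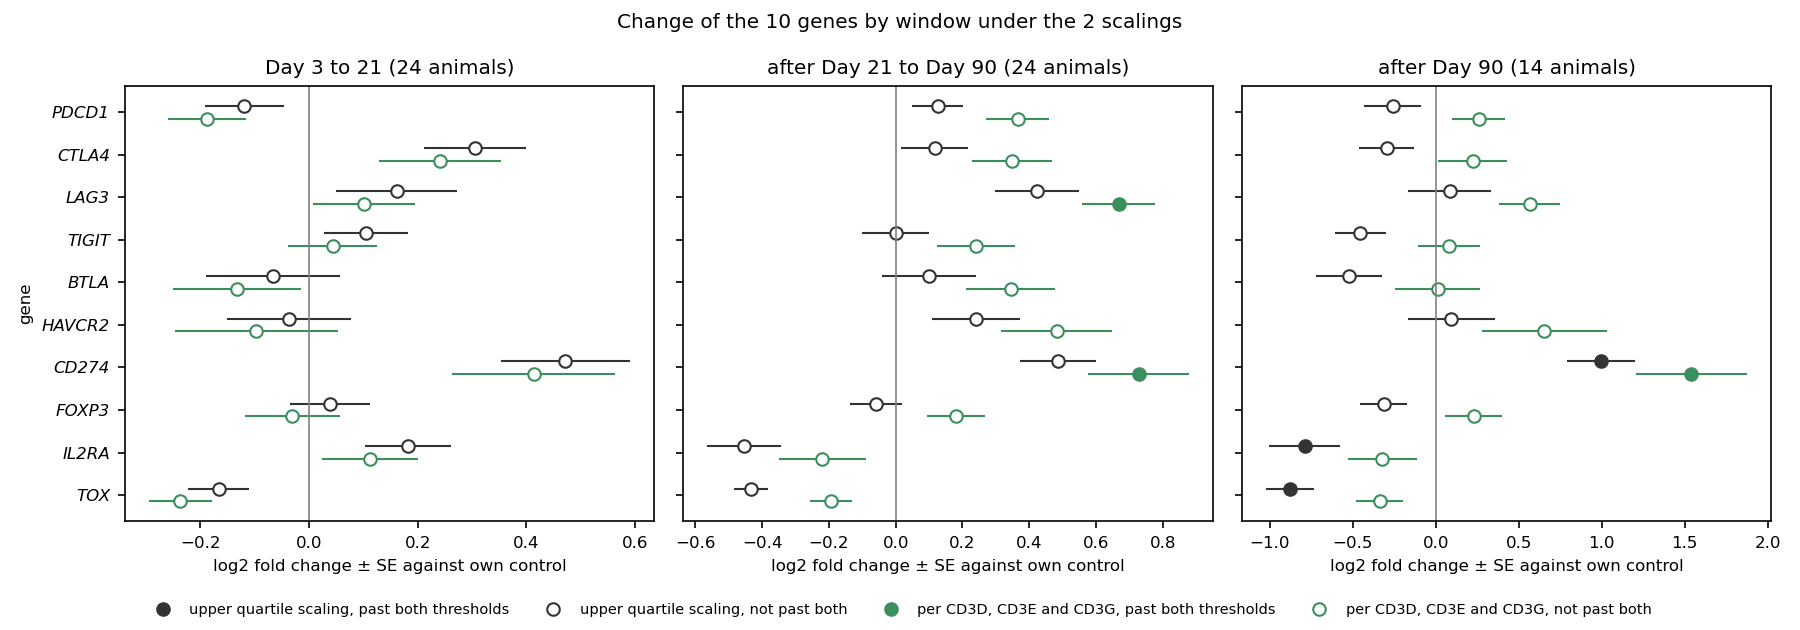
Log2 fold change ± SE of each gene against its own control in the early, medium and late windows (the horizontal scales differ), with upper quartile scaling in black and per count of CD3D, CD3E and CD3G in green. Filled circles passed both thresholds: CD274, IL2RA and TOX late in black, LAG3 and CD274 medium and CD274 late in green.

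Late samples were also compared with medium samples of the same 16 animals, which uses no control and had both windows in a single series for 7 animals. BTLA fell from 27.5 to 95.6 CPM (median 51.7) to 11.9 to 67.3 (median 23.4), in 15 of 16 animals (-0.9999 ± 0.15, adjusted p = 4.03e-05). CD274 rose from 17.0 to 97.5 CPM (median 30.8) to 21.0 to 307.4 (median 41.2), in 14 of 16 (0.66 ± 0.15, adjusted p = 0.00113). The ranges overlapped for both genes. These were the 2 members called, when 9.38% of all genes were higher and 12.6% lower, and the median was -0.46 over the members and -0.19 over all genes tested.

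The other members lay between -0.55 (TOX) and -0.12 (HAVCR2, 95% interval -0.40 to 0.16) and were lower in 9 to 15 of the 16 animals without passing the fold. Within the 7 animals of a single series, BTLA (-1.16), IL2RA (-1.01), PDCD1 (-0.76) and TOX (-0.66) were called lower and CD274 (0.81) higher. The share of all genes called in that fit is not given here, so this number of members cannot be set against it. In the comparison of all 16 animals, where 1 member was called lower, that number was 2 without B1003 or B2506, 3 without B1004 and 4 without B1504, and without B2507 the value of CD274 was 0.56 and was not called.

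The dose groups were compared by the difference of their changes (HD minus LD, 12 animals each). At early time points edgeR and DESeq2 called no member, as edgeR called 0% of all genes, with 3 members below an unadjusted p of 0.05. These were CTLA4 (0.45, 95% interval 0.09 to 0.81), IL2RA (-0.32, -0.63 to -0.01) and TOX (-0.25, -0.46 to -0.03), all with an adjusted p of 0.86. Library series were uneven between the doses, since all 4 controls of series C were HD and the Day 21 libraries were of series A in LD and of series B or C in HD animals. In the 12 LD and 8 HD animals with a series A control, using series A libraries of Day 3 to Day 15 alone, the differences were 0.28 for CTLA4, -0.20 for IL2RA and -0.14 for TOX. Again edgeR called no member and 0% of all genes, and no member had an unadjusted p below 0.05. At medium time points no member was called by either tool while 3.24% of all genes were, and 3 members had an unadjusted p below 0.05. The mean change of TOX was -0.57 in HD and -0.29 in LD animals, and the difference of -0.29 ± 0.09 (95% interval -0.47 to -0.11) had an adjusted p of 0.0387 without reaching the fold. In the animals with a series A control it was -0.25 (95% interval -0.44 to -0.06, adjusted p = 0.0851), and 4.57% of all genes were called. BTLA differed by -0.57 (-1.12 to -0.02, adjusted p = 0.197) and LAG3 by -0.49 (-0.98 to -0.004, adjusted p = 0.209), and with a series A control BTLA differed by -0.78 (adjusted p = 0.0914), LAG3 by -0.38 (adjusted p = 0.392) and IL2RA by -0.59 (adjusted p = 0.0774). For CD274 the interval was -0.20 to 0.78 at early and -0.10 to 0.81 at medium time points.

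The sexes (female minus male, 12 animals each) and the animals by follow-up were compared in the same way. For the sexes no member was called by edgeR or DESeq2, no member had an unadjusted p below 0.05, and 0% of all genes were called in either window. The 95% intervals of the sex difference at medium time points were -0.70 to 0.23 for CD274, -0.29 to 0.64 for IL2RA, -0.29 to 0.13 for TOX and -0.64 to 0.55 for BTLA. In LD animals the change over Day 60 and Day 90 was compared between the 5 animals last drawn on Day 270 and the 7 last drawn earlier. No member was called by either tool or had an unadjusted p below 0.05, and 0% of all genes were called. The intervals were wide, from -0.34 to 1.12 for CD274, -0.45 to 0.40 for TOX and -0.63 to 1.23 for BTLA.

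The partners of these genes in the same pathways were read from lists of related genes, at late time points first. Of 10 ligands and partners of checkpoint receptors tested, 3 rose, among them LGALS3 (1.93 ± 0.19), a lectin that binds LAG3, and NECTIN2 (1.07 ± 0.14), a ligand of TIGIT, and 1 fell, ICOSLG (-1.30 ± 0.24), the ligand of the costimulatory receptor ICOS. Of 8 costimulatory receptors 3 fell, CD28 (-1.11 ± 0.20), CD40LG (-0.88 ± 0.21) and TNFRSF25 (-0.72 ± 0.21). Of 9 other inhibitory receptors 2 rose, VSIG4 (1.06 ± 0.20) and PILRA (0.99 ± 0.18), both receptors of myeloid cells, and 2 fell, among them PVRIG (-0.94 ± 0.20), which binds NECTIN2 on lymphocytes.

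Of 10 partners of FOXP3 in regulatory T cells, 3 fell, the chemokine receptor CCR4 (-1.06 ± 0.16) and the transcription factors IKZF2 (-0.84 ± 0.14) and IKZF4 (-0.60 ± 0.21). Of 14 transcription factors of T cell exhaustion and effector function, 7 fell, led by ID3 (-1.53 ± 0.23), LEF1 (-1.21 ± 0.21) and TCF7 (-1.20 ± 0.23), of which LEF1 and TCF7 belong to naive and memory-like T cells. In the list of receptor signaling by interleukin 2, 2 of 10 genes rose, among them the inhibitor SOCS1 (0.73 ± 0.17), and 2 fell, the kinase JAK3 (-1.06 ± 0.19) and the beta chain IL2RB (-0.67 ± 0.19). Of 10 genes listed for signaling downstream of checkpoint receptors, 3 fell, CD5 (-1.17 ± 0.24), UBASH3A (-0.77 ± 0.15) and DGKA (-0.70 ± 0.13). CD5 is also among the T cell markers above, so its fall is the same value in both lists. The median log2 fold changes of these 7 lists were 0.27, -0.56, 0.09, -0.41, -0.56, -0.10 and -0.38 in this order, beside -0.13 over all genes.

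Earlier windows held few calls in these lists. At early time points the genes called were PDCD1LG2 (0.69 ± 0.10), the other ligand of PDCD1, and CISH (0.71 ± 0.07) and SOCS2 (0.59 ± 0.07), which are induced by cytokine signaling through STAT factors. At medium time points they were LGALS3 (0.83 ± 0.09), PDCD1LG2 (0.60 ± 0.11) and TCF7 (-0.62 ± 0.09). The remaining marker lists at late time points held 8 of 8 B cell markers lower (CD79B -2.52 ± 0.17), 1 of 9 NK cell markers lower (GZMB -0.89 ± 0.15), 3 of 5 dendritic cell markers lower and 1 higher, and 1 erythroid marker of 6 in each direction, and the 2 genes of CD8 T cells had a median of -0.24. Of 8 glucocorticoid response genes 5 were higher (ZBTB16 2.08 ± 0.44), with summed levels of 1367 to 4459 CPM in control samples and 1058 to 17910 CPM after Day 90. Which samples followed dexamethasone is not known here, and its part in the members' changes was not tested.

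Across all samples, with each animal's mean removed, members were set beside every tested gene by Pearson's r. The samples share animals, library series and depth, and genes are not independent replicates, so r is a description. BTLA was closest to KBTBD8 (r = 0.92), ZBTB10 (0.87) and SMC6 (0.86), and the r with KBTBD8 was 0.93 in series A alone (120 samples) and 0.93 in series C alone (150 samples). TOX was closest to UBASH3A (0.90, with 0.58 in series A and 0.87 in series C), PRKCQ (0.89) and EVL (0.87). CD274 was closest to PARP9 (0.86, with 0.85 in series A and 0.88 in series C), DTX3L (0.83) and LOC694538 (0.81). For these 3 genes the closest gene had a higher r than for the other 7.

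The remaining members had weaker neighbours. PDCD1 was closest to SSBP4 (0.78), NTNG2 (0.78) and MATK (0.76), and LAG3 to SH2D2A (0.77), SSBP4 (0.76) and APOBEC3D (0.76). CTLA4 was closest to TMEM263 (0.74), CD28 (0.74) and ICOS (0.72), and TIGIT to SNAP47 (0.77), KHK (0.76) and ACOT7 (0.74). FOXP3 was closest to TNFRSF25 (0.75), DNMT3A (0.73) and IL11RA (0.73), and IL2RA to LOC716034 (0.74), CCR7 (0.74) and RHOH (0.73). Within series A several of these were lower, with 0.27 for LAG3 and SH2D2A, 0.32 for TIGIT and SNAP47, 0.45 for PDCD1 and SSBP4 and 0.22 for IL2RA and LOC716034. Within series C the r of these pairs were 0.85, 0.80, 0.81 and 0.64. HAVCR2 had no close neighbour, with NCR1 (0.41), RGS9 (0.41) and GNLY (0.40) at the top. Between members the highest r were 0.65 for IL2RA and TOX, 0.64 for PDCD1 and LAG3 and 0.63 for TIGIT and TOX, and the lowest was -0.44 for CD274 and TOX. Within series A these were 0.23, 0.35, 0.16 and -0.30, and within series C 0.54, 0.66, 0.58 and -0.56.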

How the data were processed

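The 304 libraries of 28 rhesus macaques were made from RNA of whole blood depleted of ribosomal RNA. The authors used cutadapt 2.10 to trim reads, STAR 2.7.6a to align them to Mmul_10 and Subread 2.0.1 to count them per RefSeq gene, per the submitters' processing notes and the paper's methods. Raw counts of 21070 genes were deposited. A further table by the authors gives log2 values scaled by the upper quartile and was used here only as an alternative. There were 0 columns that no sample label matched. The counting error is set by depth (2840219 to 23638161 counts per sample), and separate animals are the replicates.

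Genes that reached 3 counts in 80% of samples or more (13751) were tested with edgeR 4.0.16 (quasi-likelihood, a block for each animal, upper quartile scaling, Benjamini-Hochberg over all genes) in R 4.3.3. A gene was called at an adjusted p of 0.05 and a fold of 1.5. Each day and window had a fit of its own, so CPM of the same control sample differ slightly between comparisons. For windows, counts were summed per animal. The fit with library series as a term took each library as a separate observation. Standard errors were derived from each fold change and F statistic, and 95% intervals from these and the t distribution at the residual degrees of freedom. Correlations used log2 of CPM with a prior count of 2. The 10 genes, the related lists and the markers were chosen with earlier results of these data known. Named beside the 10 genes were at most 3 called genes per list with the largest change and the 3 genes closest to each member by correlation. Of the list genes, TRAT1, ZAP70, CD27, GBP1, GBP2, LGALS9, FCN1, CEACAM8, LAIR1 and ENTPD1 were not analysed here.

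The same-animal pairing rests on the labels: deviations of an animal's control and summed early samples from their group means correlated by 0.35 to 0.74 (median 0.60), and 24 of 24 animals correlated best with themselves. The alternatives were TMM scaling, DESeq2 1.42.0, no filter, no replicate block, limma 3.58.1 on the deposited log2 values, samples from 1 library series only, a model term for library series, the 6 animals followed to Day 270, all T cell markers in place of CD3 genes, and, added after the data were seen, leaving out single animals and, for dose, keeping animals with a series A control. In data simulated for the tested genes with a single dispersion, edgeR recovered 200 of 200 genes changed 3-fold with 24 animals and 189 of 200 with 6. DESeq2 recovered 200 and 186. False calls were 0 and 4 for edgeR and 0 and 25 for DESeq2. Changes smaller than 3-fold were not simulated, so the recovery of changes of the size seen in most members is not known from this. Figures were drawn with Matplotlib 3.10.9 and sequences read with pysam 0.24.0, and other steps used the R package data.table (version 1.17.8), NumPy 2.4.6 and pandas 2.3.3 under Python 3.11.15.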

Additional observations from a re-analysis of the deposited data

Results flagged for a closer look

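Samples that stood apart were sought in each of the 6 groups of 4 to 10 samples of a day and dose, by the gap between an extreme sample and its nearest neighbour (Dixon's test, 95% critical values). Of 60 combinations of gene and group, 9 were flagged, and chance flags about 1 in 20.

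All 9 flagged values came from 3 LD animals. In B1502 on Day 150, CTLA4, LAG3 and TIGIT were each at 0.0 CPM, while the lowest of the other 7 LD animals had 5.20, 1.66 and 3.05 CPM. This was the library with the fewest counts (2840219), in which IL2RA was at 0 too. In the same animal IL2RA was 0.933 CPM on Day 210 (2.63 to 3.21 in the others) and HAVCR2 was 10.5 CPM on Day 240 (2.71 to 3.51 in the others).

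In B1003 on Day 180, FOXP3 was 15.0 CPM and IL2RA 5.58 CPM, against 10.5 to 11.4 and 1.68 to 2.36 CPM in the other animals. In B1503 on Day 240, CTLA4 was 10.3 CPM (4.40 to 5.51 in the others) and TOX was 12.4 CPM (35.1 to 52.9 in the others).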

How the results depend on the processing

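No called change of a member turned its direction under any alternative run. Leaving out 1 animal, 174 of the values kept their call and 20 lost it, and under the other alternatives 143 kept it and 27 lost it. Within the same library series 7 days could be fitted and no day after Day 40 was among them. On these days 0 pairs of member and day were called higher and 1 lower. The main fits called 1 higher (LAG3 on Day 40) and 1 lower (BTLA on Day 3) on the same days. Over all 15 days, pairs called lower went from 11 to 5 in the 6 animals followed to Day 270, a smaller sample. Within the same series, 1 member was called higher (CD274, 0.77) and 1 lower (TOX, -0.66) at medium time points in 4 animals, where the main counts were 0. At late time points the number lower was 1 in the 6 animals followed to Day 270, and it ranged from 2 to 3, with 1 higher throughout, when single animals were left out. For late against medium the number lower was 2 with limma on the log2 values and 4 within the same series, and leaving out single animals gave 1 to 4 lower and 0 to 1 higher. Without the replicate block, that is without pairing by animal, the number higher per CD3 count was 1 at medium and 2 at late time points. All T cell markers in place of CD3 genes also gave 2 at late time points. The cause of these shifts was not tested, and no share of all genes called is given for these counts. The block changed no other count of members by over 1.5 times. Without it TOX on Day 90 (-0.55), TIGIT on Day 120 (-0.58), IL2RA on Day 150 (-0.99), CD274 on Day 210 (1.45) and CD274 per CD3 count at medium time points (0.57) were not called. Of 20 correlations recomputed within a library series, 13 moved.

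Depth limits the low genes most: IL2RA had under 3 counts in 6 samples and HAVCR2 in 2. After Day 150 each day holds 6 animals, 5 of them LD, so late values describe the animals that were followed. Library series and late time cannot be told apart against the control, since 1 of 14 animals had both in a single series.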
